A study of Mus musculus with 16 samples.

Results

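The comparison described here is that of early fluoxetine with vehicle in mice lacking 1 functional copy of Arid1b. Its members were chosen by group, as all heterozygous (HT) mice of the series, and comprised 8 of its 16 samples: 4 mice given fluoxetine (HT-Flx) and 4 given vehicle (HT-Veh). All were male C57BL/6N mice carrying the same germline allele, a deletion at exon 5 made with CRISPR/Cas9 that truncates the protein, so that every cell of the body and not the cortex alone was heterozygous. Pups received the drug indirectly, through the milk of dams that drank 0.1 mg/ml fluoxetine in water with 0.2% saccharin, from postnatal day (P) 3 to P21, and dams of the vehicle pups drank saccharin water without drug. The prefrontal cortex was taken at P120, and the mice had drunk normal water since P21. The exposure of a single pup was not measured, and the labels do not say which mice shared a dam, so the p-values below measure the spread between these mice and littermates cannot be told apart from unrelated mice.

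Fluoxetine is a selective serotonin reuptake inhibitor. It blocks the serotonin transporter, and in the first weeks after birth that transporter is present both on serotonergic axons and, for a time, on other neurons that do not make serotonin themselves. Serotonin at this age shapes the growth of cortical circuits, and exposure in this window can leave effects that outlast the drug. Arid1b encodes a DNA-binding subunit of the SWI/SNF (BAF) complex, which uses ATP to move nucleosomes and so sets which genes can be read. Loss of 1 copy in humans causes a syndrome of intellectual disability and autism.

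Values are normalized read counts per gene, that is, estimated read counts divided by a normalization factor of the authors, and changes are differences of mean log2(value + 1), HT-Flx minus HT-Veh. Arid1b itself, the targeted gene, was at 2005, 1753, 1802 and 1619 in HT-Veh mice 1 to 4 and at 1669, 1661, 1671 and 1545 in HT-Flx mice 1 to 4. The groups overlapped, and the change was -0.13 (SE 0.076). Wild-type (WT) vehicle mice ran from 1787 to 2831, so that part of the HT-Veh mice lay within the wild-type range. The transcript of the mutant allele may still be counted, so the level of Arid1b checks the genotype only in part.

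Totals of the normalized counts lay within 97.4% and 104% of their mean, and the sequencing depth behind them is unknown. The tissue carried the markers of cortex, with the glutamatergic neuron gene Slc17a7 at 34075 to 43463 in all 8 mice. A pair of mice stood apart. HT-Veh 4 had olfactory bulb transcripts: the 8 bulb markers summed to 3379 in this mouse, against 607 to 653 in the other HT-Veh mice and 540 to 822 in HT-Flx. Eomes, a transcription factor of bulb projection neurons, was at 240 in HT-Veh 4 and between 0 and 10.4 in the other 7, listed at 0 in HT-Flx 3. Striatal markers summed to 24241 in the same mouse and to between 7095 and 14118 elsewhere. HT-Flx 2 had the most genes standing more than 1 log2 unit from the median of the other mice, 107 of 12507, 81 of them higher, compared with 72 in HT-Veh 4 and 15 to 46 in the others. The first principal component, with 25.2% of the variance, was led by HT-Flx 2 and the second, with 21.3%, by HT-Veh 4. Without HT-Veh 4, HT-Flx 2 or both, the median change of 23 of the 45 gene lists described below took the other sign, and these lists are given with and without these mice. In bulk tissue, fewer cells of a type and less RNA per cell cannot be told apart.

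No gene passed the test. Of 16814 genes tested with limma, 0 had an adjusted p under 0.05, and the smallest adjusted p was 0.900. At an unadjusted p under 0.05 there were 516 genes (3.07%), 241 higher (1.43%) and 275 lower (1.64%) in HT-Flx. The values of the 2 groups did not overlap for 334 genes (1.99%), of which 157 were higher (0.934%) and 177 lower (1.05%). Differences were small for most genes. The median absolute change was 0.083, and 95% of genes differed by less than 0.46 in either direction. The 95% confidence interval lay within 1 log2 unit of no change for 88.3% of genes and within 0.5 for 65.1%, so that for the rest a difference of that size was not excluded by the interval. Of 104 genes with a change of more than 1 log2 unit, 48 had an unadjusted p under 0.05. All values below are to be read against these shares and against a median change over all genes of 0.0030, with 51.2% of genes above 0 and 48.8% below.

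**Figure D1:**
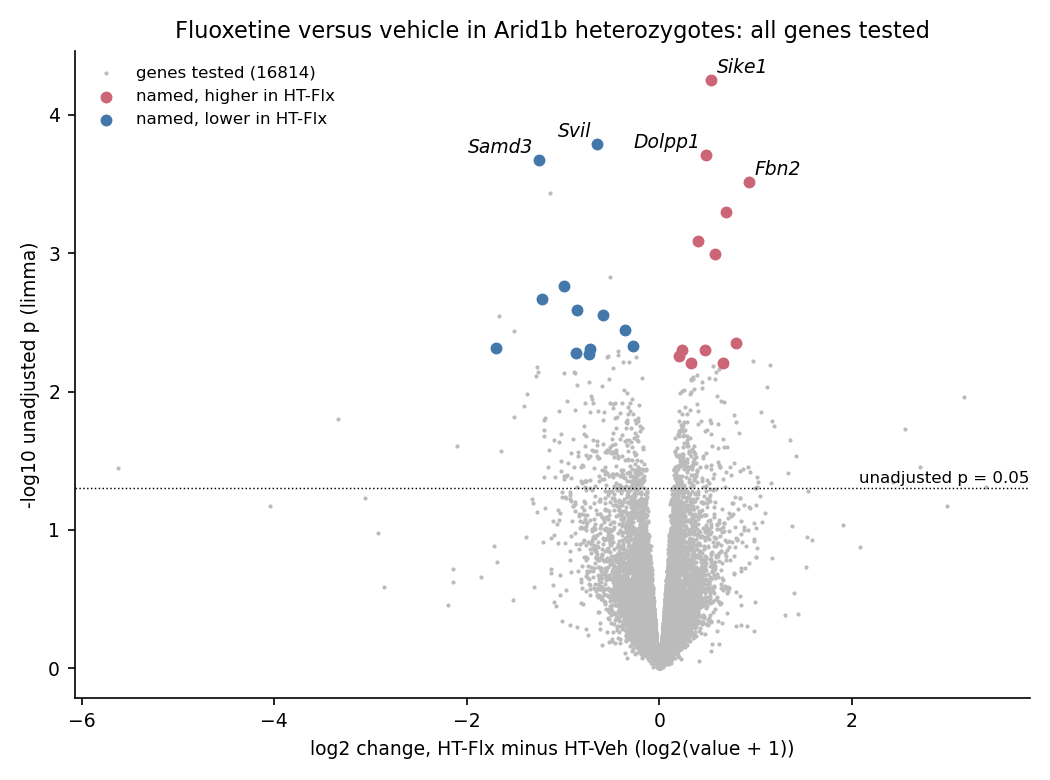
Each point is 1 of 16814 genes, with the log2 change between HT-Flx and HT-Veh on the x axis and the -log10 of the unadjusted limma p on the y axis. Coloured points are the 12 genes per direction with the smallest p among protein-coding genes whose groups did not overlap, and none of the points passed an adjusted p of 0.05.

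The genes named next are from the 12 protein-coding genes per direction with the smallest p among those whose mice did not overlap, and they are given as the leading candidates of a comparison in which none passed. Sike1 (ENSMUSG00000027854, chromosome 3, 102995708 to 103008459, GRCm38) had the smallest p of all. It encodes a suppressor of the innate immune kinases IKK-epsilon and TBK1 that is also part of the STRIPAK phosphatase complex. It was at 1268, 1102, 1334 and 1222 in HT-Veh and at 1696, 1650, 1783 and 2058 in HT-Flx, so that the lowest fluoxetine mouse lay well above the highest vehicle mouse. The change was 0.54 (SE 0.089, limma, unadjusted p 5.63e-05, adjusted p 0.900). Of the 23 tested members of the TBK1 pathway and STRIPAK complex, Sike1 included, 14 were higher, the median change was 0.011 and Sike1 alone had an unadjusted p under 0.05. Tbk1 averaged 1470 ± 129 in vehicle mice and 1338 ± 32.0 in fluoxetine mice (SD, n = 4 each, as for all values given with ± here).

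Dolpp1 (ENSMUSG00000026856, chromosome 2, 30392254 to 30400529), a phosphatase that recycles the dolichol carrier of N-linked sugars, was at 322, 309, 324 and 311 in HT-Veh and at 408, 454, 466 and 448 in HT-Flx. The groups were far apart relative to their spread, and the change was 0.48 (SE 0.091). Fbn2 (ENSMUSG00000024598, chromosome 18, 58008623 to 58210487), a fibrillin of extracellular microfibrils, was at 66.4, 73.3, 56.7 and 95.8 and at 131, 159, 134 and 128, a change of 0.93 (SE 0.18). Mid1 (ENSMUSG00000035299, chromosome X, 169685199 to 170005736), a ubiquitin ligase bound to microtubules, was at 242, 370, 411 and 337 and at 506, 556, 546 and 547, a change of 0.69 (SE 0.15). In C57BL/6 mice Mid1 crosses the boundary of the pseudoautosomal region, where sequence is repeated, so its counts are less certain than those of the others. The remaining higher genes were Donson, a protector of replication forks (0.41), Ccdc134 (0.58), the GTPase-activating protein Sh3bp1 (0.80), the neutral sphingomyelinase Smpd4 (0.24), the ciliary kinase Mak (0.47), the splicing regulator Rbfox2 (0.20), the collagen lysyl hydroxylase Plod3 (0.33) and Fam53b (0.66). In Sh3bp1 and Fam53b HT-Flx 2 lay far above the other mice, at 1342 against 367 to 683 and at 2652 against 895 to 1515 in the other 7.

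Among the lower genes, Svil (ENSMUSG00000024236, chromosome 18, 4920540 to 5119299), which links actin and myosin to membranes, was at 315, 384, 390 and 421 in HT-Veh and at 254, 224, 259 and 225 in HT-Flx, a change of -0.64 (SE 0.12). Samd3 (ENSMUSG00000051354, chromosome 10, 26229707 to 26272172) was at 48.9, 46.2, 41.3 and 55.7 and at 16.1, 23.7, 20.6 and 18.3. The level in every fluoxetine mouse was well under that of every vehicle mouse, with a change of -1.25 (SE 0.24). Mms22l, which acts in replication-coupled DNA repair, and Cenpk, a centromere protein, also had low levels, at 42.8 to 67.8 and 33.8 to 42.0 in HT-Veh and at 22.8 to 34.3 and 8.79 to 23.4 in HT-Flx (changes -0.99 and -1.22). Tmem40 (-0.85), Nt5dc2 (-0.73) and Eef2kmt, which methylates a translation elongation factor (-0.72), were also genes of low level. Adgrg1, an adhesion receptor with roles in cortical and oligodendrocyte development, had a small and even difference, at 1318 to 1634 in HT-Veh and 1209 to 1290 in HT-Flx (-0.27, SE 0.079). Ebf1, a transcription factor found in mural cells of vessels among others, was at 207, 155, 161 and 203 and at 131, 103, 134 and 112 (-0.59, SE 0.16). Of the 13 endothelial and mural markers 11 were lower, with sums of 16286 to 20523 in HT-Veh and 15293 to 18315 in HT-Flx and none at 0, and their part in the Ebf1 difference was not tested.

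**Figure D2:**
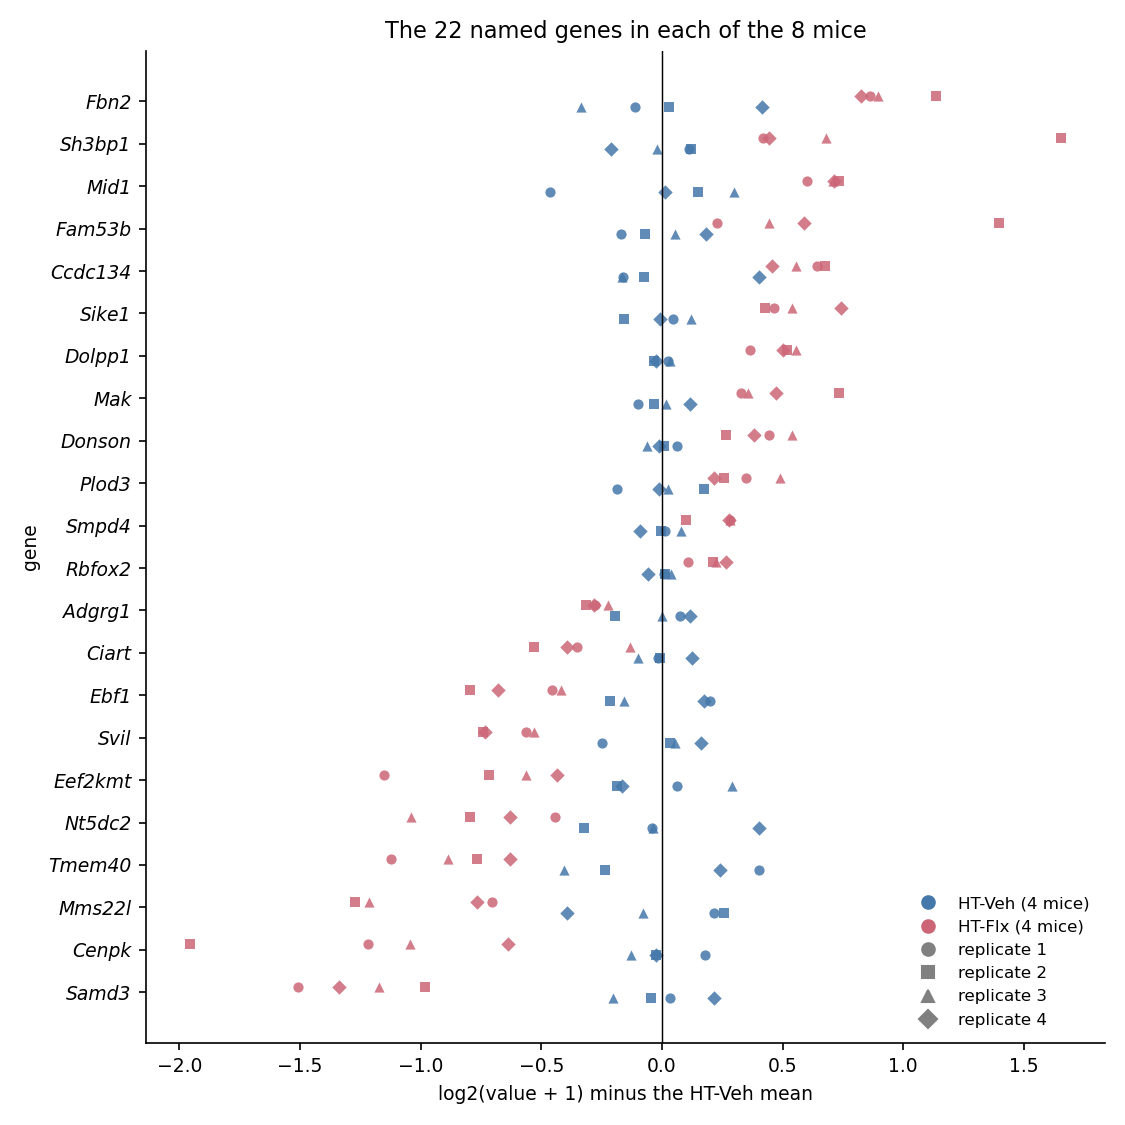
Points show log2(value + 1) of 22 of these genes, those reported by name, in each of the 8 mice, set to the HT-Veh mean of that gene, with HT-Veh in blue and HT-Flx in red and 1 marker shape per replicate number. The groups do not overlap in any row because genes were chosen for this, and HT-Flx 2 (red square) lies far from the other fluoxetine mice in Sh3bp1 and Fam53b.

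Outside the protein-coding genes, the 3 with the smallest p were all lower in HT-Flx. 4930451G09Rik was at 72.0 to 127 in HT-Veh and 36.6 to 60.9 in HT-Flx (-1.13, SE 0.23). E530011L22Rik was at 248 to 306 and 175 to 226 (-0.51, SE 0.12). B130024G19Rik was at 37.4 ± 29.3 and 9.41 ± 2.53 (-1.66, SE 0.44), with HT-Veh 4 the highest mouse.

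The same 24 genes were then read in the 8 wild-type mice, which had no part in choosing them. Of 23 tested there, 6 differed in the same direction with fluoxetine and 17 in the opposite one, and 0 had an unadjusted p under 0.05 in limma, where the share over all genes was 4.2%. Over all 16532 genes tested in both genotypes, 46.9% had the same direction. Sike1 was 0.26 higher in WT-Flx than WT-Veh (SE 0.32) and Fbn2 0.14 higher (SE 0.40). Svil (0.47, SE 0.25), Samd3 (0.61, SE 0.37) and Nt5dc2 (0.77, SE 0.39) were higher where they had been lower in HT mice. Mid1 was at 714 ± 487 in WT-Veh and 330 ± 96.8 in WT-Flx, whereas HT-Veh mice averaged 340 ± 72.0 and HT-Flx mice 539 ± 22.2. In the interaction fit, which tests the difference between the genotypes itself, no gene passed, and the smallest adjusted p among the 24 was 0.998. At an unadjusted interaction p under 0.05 there were 16 of the 24, against 4.29% of all genes, but the genes had been chosen on the HT change, which is part of this difference, so the count is only a description.

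**Figure D3:**
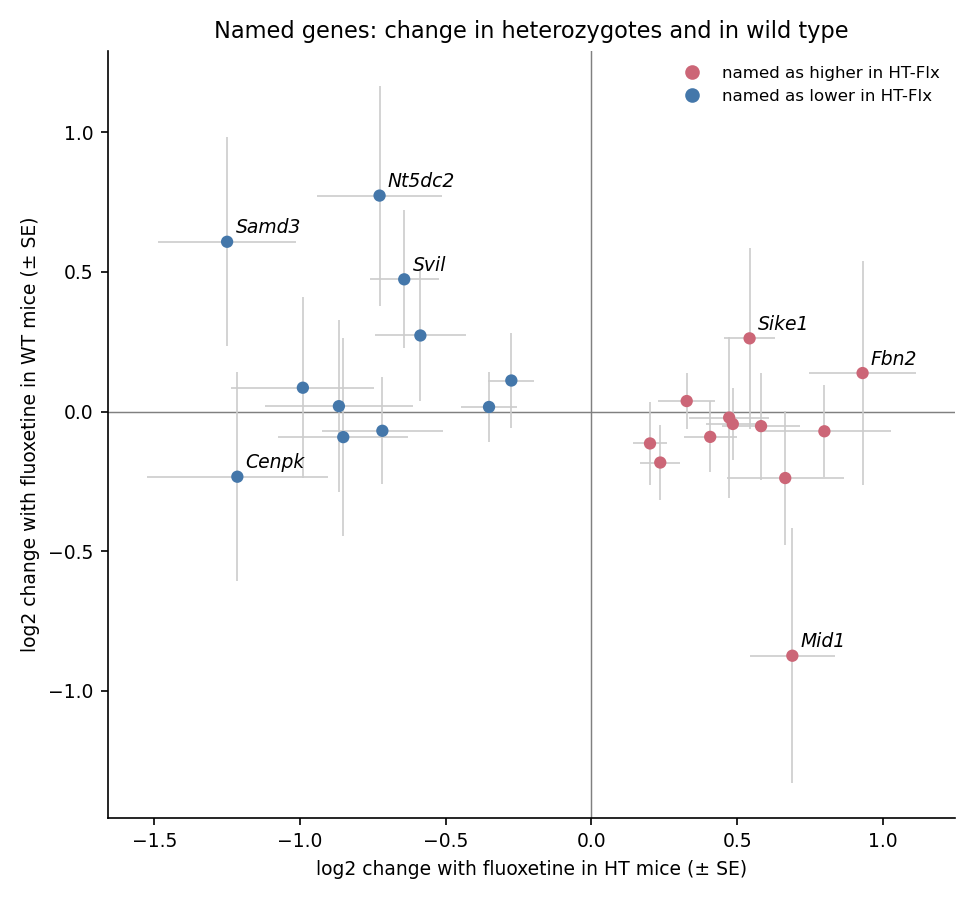
The log2 change with fluoxetine in HT mice (x axis) and in WT mice (y axis), each with its SE, for the 23 named genes tested in both. Genes named as higher (red) and lower (blue) in HT-Flx are scattered around 0 in WT mice, 6 with the same sign and 17 with the opposite sign.

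The study had followed a pathway from the histone deacetylase Hdac4 to the transcription factor Mef2a and its synaptic target Arc. The class IIa HDACs are carried between cytoplasm and nucleus by neuronal activity, and in the nucleus they hold MEF2 factors silent. Hdac4 was at 1854, 2128, 2002 and 1728 in HT-Veh and at 1975, 2801, 2004 and 1955 in HT-Flx. The groups overlapped, and 1 mouse, HT-Flx 2, lay above the rest. The change was 0.17 (SE 0.12) with it and 0.041 without it. Mef2a was at 4987 ± 170 and 4994 ± 716. Arc was at 1373, 3613, 5575 and 6474 in HT-Veh and at 2322, 3209, 10418 and 5266 in HT-Flx, a wide spread within each group, and its change of 0.30 had a 95% interval from -0.79 to 1.38. Of the 7 class IIa HDACs and MEF2 factors tested, taken as 1 list, 4 were higher and 3 lower (median 0.051). Each interval lay within 0.5 log2 units of no change. Without both HT-Veh 4 and HT-Flx 2, 2 were higher and 5 lower (median -0.010). Fragile X protein targets are mRNAs bound by the protein lost in fragile X syndrome. The study named 10 of them as leading an enrichment in the whole brain, another tissue. For prefrontal cortex it reported positive enrichment of the whole target set, which was not tested here. In these prefrontal samples the 10 had 6 higher and 4 lower (median 0.0074), and all 10 intervals lay within 0.5. The split of these targets rested on HT-Veh 4, the lowest mouse for 6 of the 10. Without it 2 were higher and 8 lower (median -0.038), and without both mice 1 was higher and 9 lower (median -0.024). Of the 27 SWI/SNF subunits, 19 were higher with a median of 0.019, 26 intervals lay within 0.5, and the range ran from -0.13 for Arid1b to 0.26 for Dpf3, a neuronal subunit. The related subunits Arid1a (4503 ± 196 and 4404 ± 170) and Arid2 (1416 ± 92.2 and 1419 ± 111) differed by less than the spread between mice. Autism-linked chromatin regulators had 12 of 20 higher (median 0.034), but 8 without HT-Veh 4 (median -0.026) and 7 without both mice (median -0.035).

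The drug acts on the serotonin system. Transcripts of the transporter that it blocks, Slc6a4, are made in the raphe nuclei and were not analysed here, and Tph2, the enzyme of serotonin synthesis in neurons, was at 11.2 to 19.2. Of the 12 serotonin receptor genes, 11 were tested, 3 higher and 8 lower (median -0.044). Htr4, a receptor that raises cAMP, was at 6.03, 14.3, 13.9 and 18.3 in HT-Veh and at 21.2, 46.7, 16.3 and 45.1 in HT-Flx. HT-Flx 3 lay within the vehicle range, the others above it, and the change of 1.19 (SE 0.43, limma, unadjusted p 0.0179, adjusted p 1.00) came from values close to the minimum for testing. The main cortical receptors overlapped between the groups. Htr1a, the inhibitory receptor of pyramidal neurons, was at 487 ± 39.7 and 438 ± 74.4, and Htr2a, their excitatory receptor, at 1400 ± 83.8 and 1259 ± 374. Htr2c, which fluoxetine also binds, was at 488 ± 135 and 453 ± 184. Among 8 genes of monoamine transport, synthesis and breakdown 6 were lower (median -0.069). Without HT-Veh 4, 4 were higher and 4 lower (median -0.019). Without both HT-Veh 4 and HT-Flx 2, 3 were higher and 5 lower (median -0.057). Maob, a mitochondrial amine oxidase, was lower in every HT-Flx mouse, at 786 to 821 in HT-Veh and 722 to 780 in HT-Flx, a change of -0.077 (SE 0.071). Th, the enzyme of dopamine synthesis, was at 328 in HT-Veh 4 and at 21.8 to 47.2 in the other 7 mice. For the 5 tested genes of proteins known to bind fluoxetine, 2 were higher and 3 lower (median -0.023). Ntrk2, the receptor of BDNF, was at 20072 ± 1668 and 19828 ± 2665.

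Genes that neurons switch on with activity had the highest median of all 45 lists, and its size depended on single mice. Of the 30 genes, 23 were higher, with a median of 0.17, but none had an unadjusted p under 0.05 and none separated the groups. HT-Flx 2 was the highest mouse for 12 of the 30 genes and HT-Flx 3 for another 12, and HT-Veh 1 was the lowest for 15. The transcription factor Fosb was at 264, 297, 310 and 401 in HT-Veh and at 255, 3729, 472 and 366 in HT-Flx. Nptx2, a secreted organizer of AMPA receptors at synapses on interneurons, was at 6245 in HT-Flx 2 and 714 to 1004 in the other 7. In the same mouse, Bdnf was at 1561 against 429 to 642, Gadd45b, a stress and demethylation factor, at 817 against 139 to 270, the prostaglandin synthase Ptgs2 at 945 against 332 to 453, the transcription factor Egr3 at 8498 against 3061 to 4792 and the synaptic scaffold Homer1 at 9479 against 3868 to 6202. Other early genes did not follow in that mouse. Npas4, a transcription factor specific to neuronal activity, was lowest there, at 247 against 317 to 985 in the others, and Nr4a1 (1460) and Egr1 (3830) lay within the vehicle range. HT-Flx 3 had another make-up, with the highest values of Arc (10418), Fos (857), Npas4 (985), Nr4a1 (3335) and Egr1 (7166), and with Nptx2 at 791. Without HT-Flx 2, 23 of 29 tested genes were higher with a median of 0.15. Without HT-Veh 1, the median was 0.010.

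**Figure D4:**
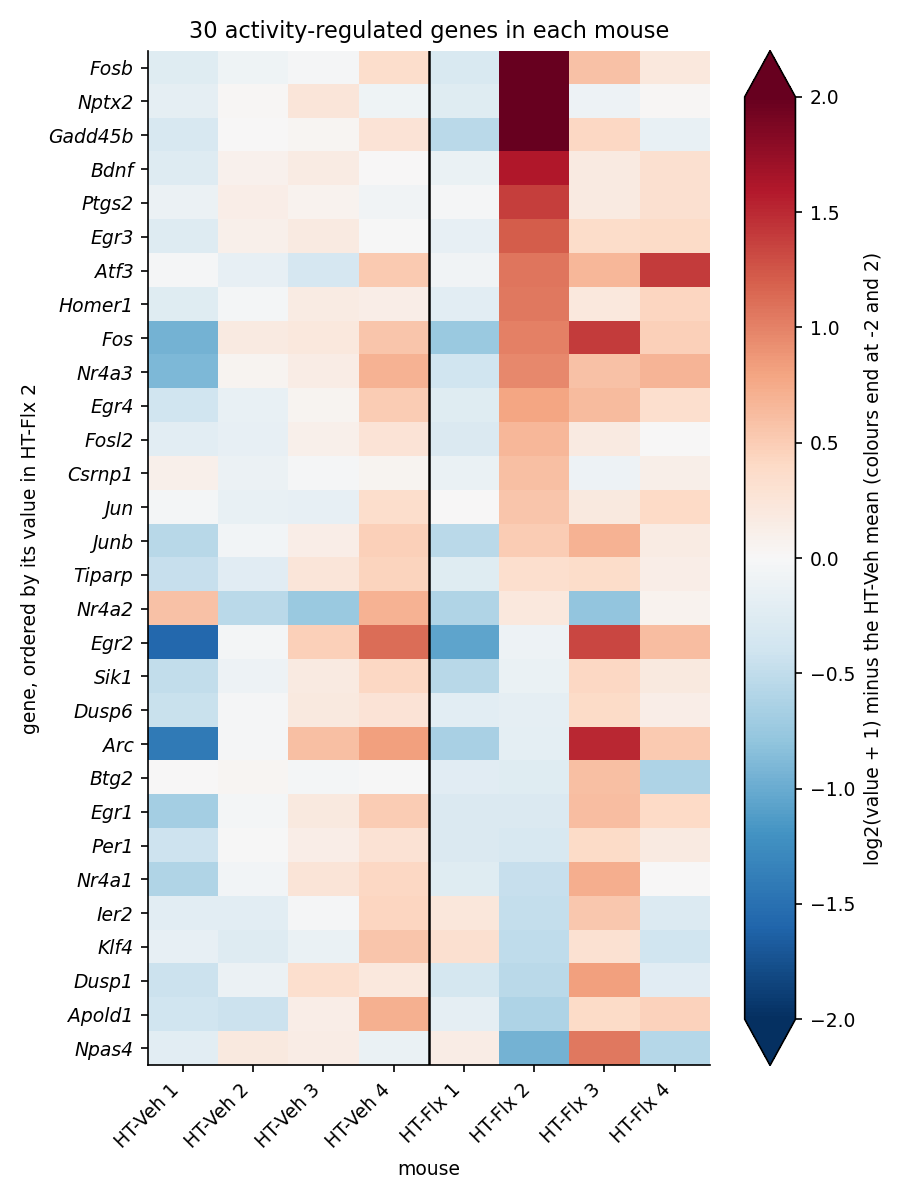
Rows are the 30 activity-regulated genes and columns the 8 mice; colour gives log2(value + 1) minus the HT-Veh mean of the gene, red for higher, with the scale ending at -2 and 2. Fosb, Nptx2 and Gadd45b are darkest in HT-Flx 2, Arc and Npas4 are red in HT-Flx 3 and blue in HT-Flx 2, and HT-Veh 1, the lowest mouse for 15 genes, is mostly blue.

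Further genes stood out in HT-Flx 2 in the same manner and were chosen after their values were seen, as those farthest above the median of the other mice. Igsf9, a neuronal adhesion protein, was at 897 against 83.0 to 176, the chromatin remodelling subunit Baz1a at 480 against 55.4 to 114, the orphan receptor Gprc5c at 581 against 82.2 to 170 and the cyclin Ccnf at 654 against 107 to 176. Their changes between the groups, from 0.27 for Baz1a to 1.16 for Igsf9, include this 1 mouse, and without it those of Baz1a and Gprc5c were -0.43 and -0.25.

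The promoters of the genes that lead this pattern are shown for the cAMP response element (CRE), to which the activity-dependent factor CREB binds, and that of Ciart, the clock gene that separated the groups, for the E-box bound by CLOCK and BMAL1. Sequences are from RefSeq (GRCm38.p6), 150 bases up to the start of transcription, 5′ to 3′ on the strand of the gene, with motifs in capitals. The motifs searched in 250 bases upstream were the CRE half-site TGACG on either strand and the E-box CACGTG, which reads the same on both. A half-site was present in 17.7% of 32817 promoters of that length and an E-box in 6.02%. For Homer1 and Bdnf, which have 2 and 7 start sites in RefSeq, the site with the most matches is shown. The other start sites of both genes had no half-site. The shares above are per promoter, so a site picked as the best of several cannot be compared with them. Nptx2, Arc and Sike1 had no entry.
Fosb (chr7:19310046-19310195, minus strand): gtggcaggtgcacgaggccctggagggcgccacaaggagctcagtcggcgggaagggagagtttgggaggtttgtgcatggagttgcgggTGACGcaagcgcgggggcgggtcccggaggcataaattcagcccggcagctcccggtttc
Fos (chr12:85473740-85473889, plus strand): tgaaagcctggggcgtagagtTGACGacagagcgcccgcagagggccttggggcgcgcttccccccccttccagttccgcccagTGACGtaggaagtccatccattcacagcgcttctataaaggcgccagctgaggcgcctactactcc
Homer1 (chr13:93303607-93303756, plus strand): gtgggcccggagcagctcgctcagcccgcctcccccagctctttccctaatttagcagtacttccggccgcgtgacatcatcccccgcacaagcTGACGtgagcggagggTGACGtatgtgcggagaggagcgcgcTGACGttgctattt
Bdnf (chr2:109692286-109692435, plus strand): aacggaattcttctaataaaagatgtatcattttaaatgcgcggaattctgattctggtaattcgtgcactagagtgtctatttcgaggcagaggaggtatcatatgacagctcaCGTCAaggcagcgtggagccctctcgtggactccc
Ciart (chr3:95882229-95882378, minus strand): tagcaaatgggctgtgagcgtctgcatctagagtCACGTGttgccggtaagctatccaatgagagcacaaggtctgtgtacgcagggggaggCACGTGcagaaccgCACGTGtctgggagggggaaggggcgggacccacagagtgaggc

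At the start sites shown, Fosb and Bdnf had 1 half-site each, 60 and 35 bases upstream of the start, and Fos had 2. The Homer1 site, picked for its matches, had 3, and 0.689% of all promoters had 3 or more. None of these windows held the full element TGACGTCA, which 1.55% of promoters did. Half-sites were found both at Fosb and Homer1, which were highest in HT-Flx 2, and at Fos, which was highest in HT-Flx 3. Ciart had 3 E-boxes, all within 116 bases of its start, and 0.0609% of promoters had 3 or more in the 250 bases searched. A match describes the letters in this window and does not show that a factor was bound.

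Ciart, a repressor of CLOCK and BMAL1 that cycles with the day, was at 836, 839, 788 and 922 in HT-Veh and at 662, 586, 771 and 642 in HT-Flx. Every fluoxetine mouse lay below every vehicle mouse, although HT-Flx 3 came close to HT-Veh 3, and the change was -0.35 (SE 0.097, limma, unadjusted p 0.00358). Of the 16 clock genes, Ciart included, 8 were higher, with a median of 0.0029. Per2, a core repressor also driven by E-boxes, was at 1148, 1503, 2010 and 2456 and at 1642, 2207, 2767 and 2561, a change in the other direction of 0.40 (SE 0.22). The hour at which each mouse was killed is not given in the labels. Of the 17 genes of glucocorticoid signalling, 12 were higher (median 0.056). Nr3c2, the mineralocorticoid receptor, was lower without overlap, at 1099 to 1167 in HT-Veh and 969 to 1094 in HT-Flx (-0.14, SE 0.070), and the glucocorticoid receptor Nr3c1 was at 3294 ± 241 and 3421 ± 182. Zbtb16, a gene induced by glucocorticoids, was at 1997 in HT-Flx 2 and 872 to 1541 in the others. Of the 10 heat shock genes, 7 were higher (median 0.13). Hspa1b was at 197, 273, 259 and 299 and at 239, 537, 590 and 309 (0.62, SE 0.26, limma, unadjusted p 0.0341), and its near-identical copy Hspa1a at 252 to 283 and 263 to 546, so that reads can be divided between the pair. Of the 7 neurotrophin genes tested, 3 were higher (median -0.023), and the low-affinity receptor Ngfr was at 47.2 ± 11.3 and 31.6 ± 6.60.

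Receptors and scaffolds of synapses, the targets of the electrophysiology in the study, had medians close to 0. NMDA receptor genes had 1 of 6 higher (median -0.031), with Grin1 at 14958 ± 695 and 15517 ± 1221. AMPA receptor genes had 7 of 16 higher (median -0.011), and 15 of 16 intervals lay within 0.5. The exception was Cacng5, an auxiliary subunit, at 611 in HT-Veh 4 and 122 to 191 in the other 7 mice. The subunits Gria1 and Gria2 were at 9359 ± 120 and 8852 ± 785 and at 20814 ± 1550 and 21165 ± 241. Kainate receptor genes had 5 of 7 lower (median -0.061) and metabotropic glutamate receptors 6 of 7 lower (median -0.034). Grm2, a presynaptic autoreceptor, was at 1675, 1755, 1586 and 1425 and at 1236, 1490, 1427 and 1494 (-0.19, SE 0.088). GABA-A receptor subunits had 10 of 13 lower (median -0.027). Adhesion and scaffold genes were split, 9 of 18 higher (median -0.0039) and 10 without HT-Flx 2 (median 0.044). Without HT-Veh 4, 6 were higher (median -0.021), and without both mice 9 (median -0.029). Shank2, a postsynaptic scaffold, was at 7330 ± 851 and 8405 ± 767 (0.20, SE 0.092). Of 15 genes of transmitter release, 9 were higher (median 0.015) and all 15 intervals lay within 0.5. HT-Veh 4 was the lowest mouse for 12 of the 15. Without it 5 were higher and 10 lower (median -0.048), and without both mice 3 were higher and 12 lower (median -0.022). Stx1a, a SNARE protein of vesicle fusion, was higher without overlap, at 6378 to 7305 in HT-Veh and 7464 to 8125 in HT-Flx (0.15, SE 0.065, limma, unadjusted p 0.0367). Neuropeptide genes had 12 of 15 lower (median -0.058), a direction that rested on single mice. Without HT-Veh 4, 8 were higher and 7 lower (median 0.00022), and without both mice 9 were higher and 6 lower (median 0.035). Of the 11 genes of perineuronal nets, the matrix around parvalbumin interneurons, 6 were higher (median 0.066). Without HT-Veh 4, 4 of 10 tested were higher (median -0.030), and without both mice 3 of 10 (median -0.018). Hapln1, which links hyaluronan to its proteoglycans, was at 674, 555, 940 and 679 and at 823, 853, 1047 and 983 (0.40, SE 0.14, limma, unadjusted p 0.0172), with HT-Veh 3 within the fluoxetine range.

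Over all 8 mice, most genes of protein synthesis and energy metabolism were lower in HT-Flx by small amounts. With 1 mouse left out, the median of cytoplasmic ribosomal proteins stayed below 0 (-0.10 to -0.042). So did those of nuclear-encoded respiratory complex I (-0.066 to -0.015) and complexes II to V (-0.076 to -0.011). For this comparison in prefrontal cortex the study reported negative enrichment of sets related to ribosomes and mitochondria, which was not tested here. Of 82 cytoplasmic ribosomal protein genes, 71 were lower, with a median of -0.076. At an unadjusted p under 0.05 in limma there were 3 lower and 1 higher, where the shares over all genes were 1.64% and 1.43%. The groups did not overlap for 4 lower and 1 higher, where the shares over all genes were 1.05% and 0.934%. Rps10, of the small subunit, was at 2670, 2249, 2382 and 2455 in HT-Veh and at 2000, 1985, 2045 and 2209 in HT-Flx (-0.24, SE 0.072), and Rps4x at 3726 to 4357 and 3423 to 3674. Rpl10 went the other way, at 430 to 635 and 636 to 771 (0.31). Ribosomal protein genes have many near-identical pseudogenes, so single values are uncertain. Without HT-Veh 4, 55 of 82 were lower, and without both HT-Veh 4 and HT-Flx 2, 47 were lower and 35 higher, with a median of -0.020. Mitochondrial ribosomal proteins had 44 of 77 lower (median -0.024), and 38 without HT-Flx 2 (median 0.0037). Nuclear-encoded subunits of respiratory complex I had 29 of 37 lower (median -0.044) and those of complexes II to V 34 of 45 (median -0.042). Without both HT-Veh 4 and HT-Flx 2 the medians of these 3 lists were -0.0019, 0.0070 and 0.0011. The subunit Ndufa12 was at 1526 to 1590 in HT-Veh and 1267 to 1493 in HT-Flx. The 13 genes encoded by mitochondrial DNA had 10 lower (median -0.020), and HT-Flx 2 was the lowest mouse for 7 of the 13. Without HT-Flx 2, 11 were higher (median 0.037), and without both mice 7 were higher and 6 lower (median 0.011).

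Enzymes of cholesterol synthesis were higher for 19 of 24 genes, with a median of 0.13. Adult neurons make little cholesterol and astrocytes and oligodendrocytes supply it, and transcription of the pathway is set as a block by SREBP2. Hsd17b7 was at 616, 654, 604 and 618 in HT-Veh and at 620, 843, 710 and 747 in HT-Flx (0.22, SE 0.099, limma, unadjusted p 0.0453). Hmgcs1, which starts the pathway, was at 5846 to 6692 and 6149 to 9527, Sqle at 1216 to 1465 and 1398 to 1807, and Fdps at 793 to 985 and 846 to 1252. HT-Flx 2 was the highest of the 8 mice for 11 of the 24 genes and HT-Flx 4 for 8. Without HT-Flx 2, 17 of 24 were higher and the median was 0.072.

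Markers of astrocytes, microglia and vessels were mostly lower in HT-Flx. The values of HT-Flx 2 weighed on those of astrocytes and vessels, and HT-Veh 3 was often the highest mouse. Astrocyte markers had 10 of 12 lower (median -0.057) and microglia markers 16 of 18 lower (median -0.065), the latter with sums of 18599 to 21746 in HT-Veh and 17437 to 20774 in HT-Flx. Markers of endothelial and mural cells had 11 of 13 lower (median -0.055), and HT-Flx 2 was the lowest mouse for 8 of the 13. The smooth muscle genes Acta2 and Myh11 had the largest differences. Myh11 was at 506 to 741 and 324 to 608 (-0.48). Acta2 was at 682, 524, 774 and 529 in HT-Veh and at 558, 299, 468 and 361 in HT-Flx (-0.59, SE 0.19, limma, unadjusted p 0.00905). Without HT-Flx 2, 7 of the 13 endothelial and mural markers were higher and the median was 0.0023, and astrocyte markers were 6 higher and 6 lower (median -0.0082). Microglia markers were still lower for 14 of 18 without HT-Flx 2 (median -0.046). Without both HT-Veh 4 and HT-Flx 2 they were lower for 15 of 18 (median -0.045). HT-Veh 3 was the highest mouse for 8 of the 12 astrocyte, 9 of the 18 microglia and 6 of the 13 endothelial and mural markers. Its astrocyte markers summed to 283812, against 193422 to 235577 in the other mice. With 1 mouse left out, the median ran from -0.10 to -0.0046 for astrocytes and from -0.098 to -0.041 for microglia. Of 6 markers of meningeal fibroblasts 5 were lower (median -0.13), of 4 red blood cell genes all 4 were lower (median -0.18), and of 4 choroid plexus genes tested 2 were lower (median -0.12). The choroid plexus median was 0.037 without HT-Veh 4 and 0.062 without both mice. Oligodendrocyte genes had 7 of 12 higher (median 0.040), and fluoxetine mice stood at both ends, with HT-Flx 1 the highest of the 8 mice for all 12 genes and HT-Flx 3 the lowest for 11. Without HT-Flx 2, 3 of 12 were higher (median -0.030), without HT-Veh 4, 10 (median 0.093), and without both, 9 (median 0.019). Precursor genes had 3 of 7 higher (median -0.026), 4 without HT-Veh 4 (median 0.024) and 3 without both mice (median -0.0079). Gpr17, a receptor of cells about to form myelin, was at 827, 1005, 1182 and 1143 and at 1195, 1166, 1379 and 1311 (0.29, SE 0.11, limma, unadjusted p 0.0235), and only HT-Flx 2 lay within the vehicle range.

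Among neurons, glutamatergic markers were higher for 6 of 7 (median 0.095) and GABAergic markers lower for 10 of 12 (median -0.061). Ndnf, a marker of layer 1 interneurons, was at 733, 577, 1022 and 889 and at 593, 463, 838 and 473 (-0.45, SE 0.20, limma, unadjusted p 0.0461). Without both HT-Veh 4 and HT-Flx 2 the medians of the 2 lists were 0.0057 and 0.037, and without HT-Veh 4 alone 7 of the 12 GABAergic markers were higher (median 0.0087). Upper-layer markers had 3 of 5 higher (median 0.10) and deep-layer markers 5 of 9 (median 0.025). The upper-layer median was -0.0029 without HT-Flx 2, -0.033 without HT-Veh 4 and -0.11 without both. Of the deep-layer markers 2 of 9 were higher without HT-Flx 2 (median -0.077) and 8 of 9 without HT-Veh 4 (median 0.14). Lists tied to tissue beside the cortex followed HT-Veh 4: all 6 tested bulb markers were lower in HT-Flx (median -0.72), which became 0.046 without that mouse and -0.063 without both, and 10 of 11 striatal markers were lower (median -0.15), which became 0.27 without it and 0.19 without both. Of 5 markers of migrating neuroblasts 4 were lower (median -0.20), but 4 were higher without HT-Veh 4 (median 0.062), and without both mice the median was -0.015. Dcx, which organizes microtubules in young neurons, was at 1648 to 2178 and 1181 to 1743 (-0.35, SE 0.13, limma, unadjusted p 0.0184), and its change was -0.39 without HT-Veh 4. Of 25 Wnt pathway genes 12 were higher (median -0.0074), and 13 without HT-Veh 4 (median 0.0023). Without HT-Flx 2, 11 were higher (median -0.041), and without both mice 9 (median -0.038). The R-spondin receptors Lgr5 and Lgr6 had the largest differences there, and both were highest in HT-Veh 4, at 426 against 54.1 to 110 and at 387 against 51.7 to 124. Interferon response genes had 14 of 24 lower (median -0.039), and 11 of 23 tested without HT-Flx 2 (median 0.0027). Without HT-Veh 4, 16 of 24 were lower (median -0.061), and without both mice 16 of 23 (median -0.063). The RNA sensor Ddx58 was at 170 to 233 and 110 to 175 (-0.45, SE 0.18, limma, unadjusted p 0.0263).

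**Figure D5:**
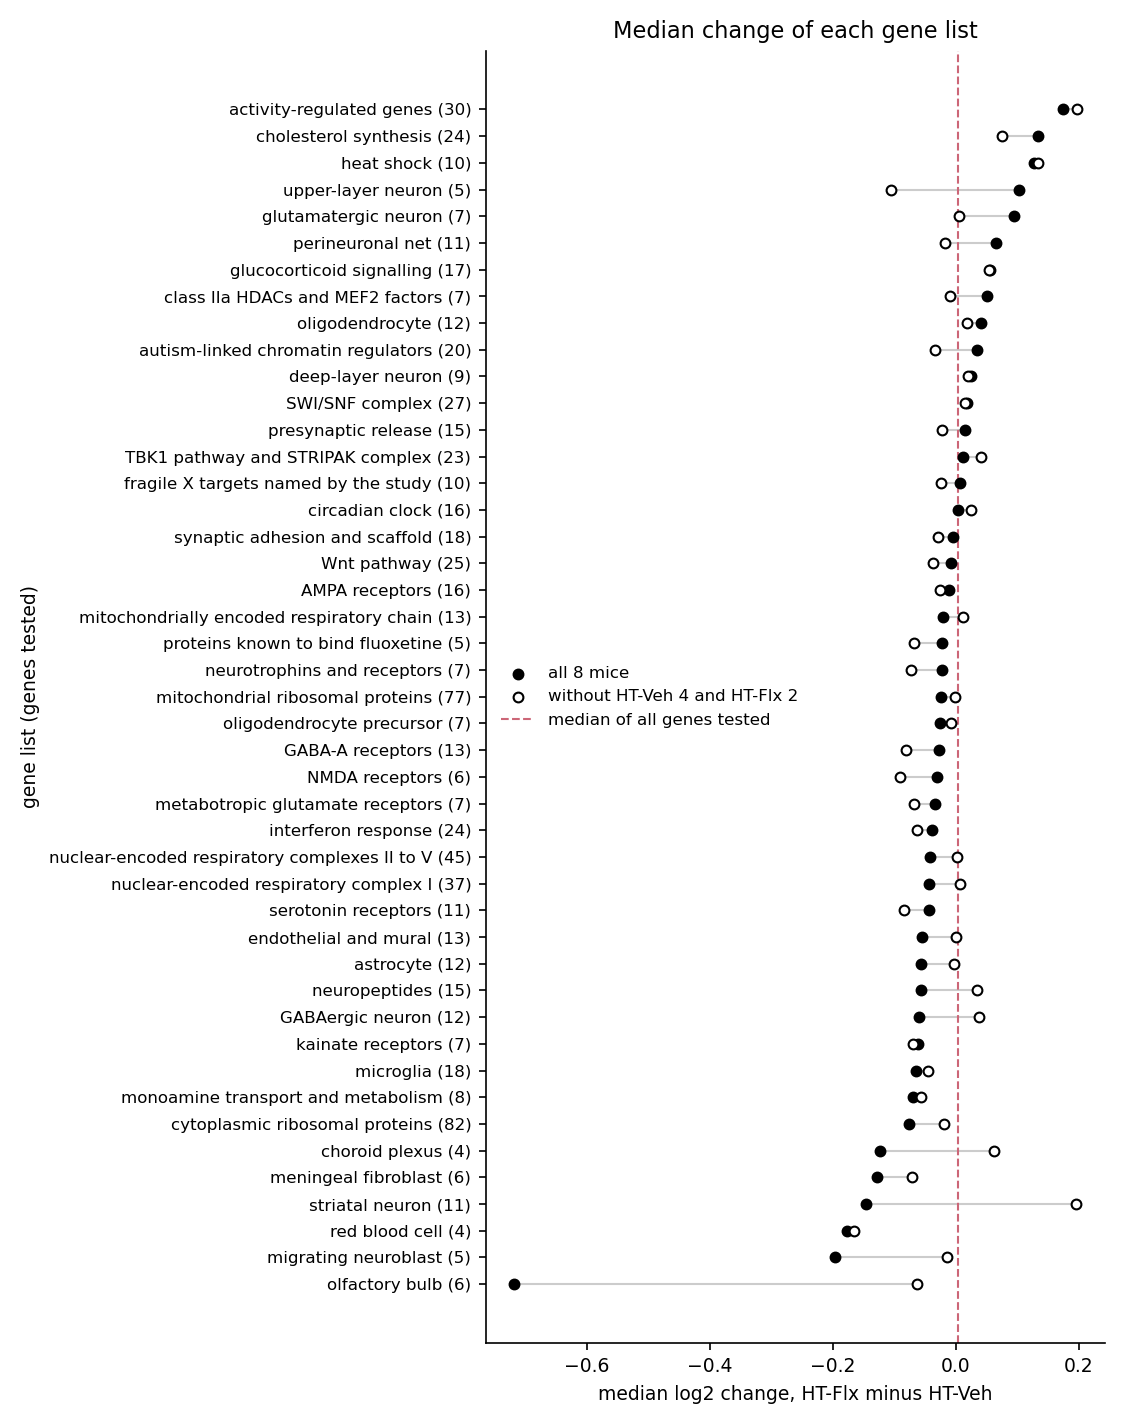
Median log2 change, HT-Flx minus HT-Veh, of each of the 45 gene lists, with the number of genes tested in brackets; filled points use all 8 mice, open points leave out HT-Veh 4 and HT-Flx 2, and the dashed line is the median of all genes tested. Activity-regulated, cholesterol synthesis and heat shock genes stay above 0 in both, while olfactory bulb and striatal markers shift most when these mice are left out.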

How the data were processed

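RNA sequencing had been done on the prefrontal cortex of each mouse, and each mouse was assigned to its group and number by its title. The deposited signal is a normalized read count per gene: the authors quantified stranded poly-A libraries with Salmon 1.1.0 on the GRCm38 transcriptome, summarised transcripts to genes with tximport and normalized in DESeq2 1.30.1. The values are not whole, so that depth is unknown and no counting interval is given. An exact 0 can be a failed estimate.

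Changes were tested with limma 3.58.1 (R 4.3.3, lmFit and eBayes with trend) on log2(value + 1), a scale on which the change of weakly expressed genes comes out too small. Genes with at least 10 in at least 4 of the 8 HT mice were tested, 16814 of 18424. P-values were two-sided and adjusted by the Benjamini-Hochberg method over all genes tested, with a threshold of 0.05. The wild-type change was fitted in the same way and the interaction over all 16 samples. The fits were checked on simulated data. Tables were handled in Python 3.11.15.

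Named genes were set by a rule: Arid1b, Hdac4, Mef2a and Arc, the 12 protein-coding genes per direction with the smallest p and no overlap, members of the lists (for lists over 12 members, the first 4 and the 4 with the smallest p), and the 3 genes of other types with the smallest p. Genes of longer lists outside this rule, namely those shown for a single mouse or as the known core of a pathway, were chosen after their values were seen. Of the genes set by the rule, 2 are not reported here by name but are included in counts. The comparison, the 45 lists and the rule were chosen with earlier results of these data known. The lists were written by hand and are partial. The alternatives, 19 in all and 1 of them added after the data were seen, covered the pseudocount, the filter, the scaling, the samples in the fit, quality weights, a replicate block, a bulb covariate and leaving out mice.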

Additional observations from a re-analysis of the deposited data

Results flagged for a closer look

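A sample was looked at again where it lay apart from the other 3 mice of its group, with a gap to the nearest of them that, as a share of the range of the group on the log2 scale, passed the 95% critical value of Dixon. Chance gives about 1 such sample in 20 groups. Of 268 groups examined, 19 had one (7.09%), where 1 in 20 would be 13.4. Among the named genes, HT-Flx 2 lay high for Nptx2 (0.913 of the range), Hdac4 (0.931), Ccnf (0.866), Baz1a (0.835) and Ntrk2 (0.834), and low for Smpd4 (0.976), where it was the fluoxetine mouse closest to vehicle. Nptx2, Ccnf and Baz1a had been picked because they stood far above the other mice in HT-Flx 2, so their values restate that choice. HT-Flx 4 lay low for Arid1b (0.924) and Ngfr (0.855). In the vehicle group, HT-Veh 4 lay high for Lgr6 (0.906) and Ccdc134 (0.839) and low for Htr1a (0.882), and HT-Veh 3 lay low for Mef2a (0.939).

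Among the means of the lists in each mouse, HT-Veh 4 lay high for olfactory bulb markers (0.906), migrating neuroblast markers (0.937) and Wnt pathway genes (0.864), and low for autism-linked chromatin regulators (0.916). HT-Flx 2 lay high for the mean of migrating neuroblast markers (0.900), but it was the highest mouse for only 2 of the 5 tested and the lowest for 1. Its sum of these markers, 2887, lay within the 2624 to 2918 of the other HT-Flx mice. HT-Veh 1 lay low for kainate receptors (0.920) and HT-Veh 3 high for the genes encoded by mitochondrial DNA (0.922). The part of bulb tissue in these values was not tested.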

How the results depend on the processing

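The number of genes past the threshold was 0 under all 19 alternatives, and the smallest adjusted p over them was 0.538. Genes at an unadjusted p under 0.05 numbered 328 (without HT-Veh 1) to 939 (without HT-Flx 1) when 1 mouse was left out, and 793 without both HT-Veh 4 and HT-Flx 2. Genes whose groups did not overlap numbered 532 to 1075 and 1621 in the same settings, where fewer mice make separation easier. Rescaling to a common upper quartile moved the split of unadjusted calls from 241 higher and 275 lower to 173 and 352, so that higher calls went from 46.7% to 33.0%. The replicate numbers did not pair the mice (correlations of deviations -0.013, -0.012, 0.136 and 0.035), and with the number as a replicate block the count past the threshold was 0 and that at an unadjusted p under 0.05 was 593.

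List medians changed sign in 103 of 854 values and in 35 of the 45 lists, most often without both HT-Veh 4 and HT-Flx 2 (14 lists), without HT-Veh 4 (13) and with the bulb covariate (12). Of these 103 shifts, 94 were smaller than the spread between mice, which includes the mice that stand apart and is widest for bulb and striatal markers, so a shift under it does not show that a direction was stable. The kainate receptor median moved by more than the spread with quantile normalization (-0.090, main value -0.061), with its sign kept. Other shifts over the spread were perineuronal net genes with the bulb covariate (-0.0094), without both mice (-0.018) and with 1 mouse left out (-0.035 to 0.11). They also included autism-linked chromatin regulators (-0.035 without both, -0.026 to 0.045 with 1 left out) and upper-layer markers (-0.11 without both, -0.033 to 0.15 with 1 left out). The last were oligodendrocyte precursor markers (-0.11 to 0.16 with 1 left out).

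Of 88 named genes, 70 kept their direction throughout. With 1 mouse left out, the change ranged over both signs for Arc (-0.17 to 0.62), Arid2 (-0.042 to 0.039), Baz1a (-0.43 to 0.60), Egr1 (-0.11 to 0.28), Gadd45b (-0.094 to 0.76), Gprc5c (-0.25 to 0.69), Gria2 (-0.025 to 0.058), Htr2c (-0.36 to 0.033), Mef2a (-0.092 to 0.070), Npas4 (-0.46 to 0.21), Nptx2 (-0.11 to 0.93), Nr4a1 (-0.23 to 0.17), Ntrk2 (-0.11 to 0.023) and Th (-1.18 to 0.10). Without both HT-Veh 4 and HT-Flx 2 the sign also turned for Arid2 (-0.020), Baz1a (-0.32), Ccnf (-0.034), Gadd45b (-0.0025), Gprc5c (-0.31), Gria2 (-0.025), Grin1 (-0.033), Hdac4 (-0.010), Npas4 (0.16), Nptx2 (-0.14) and Nr3c1 (-0.0058). It further turned with a common upper quartile and with quantile normalization for Arid2 (-0.019, -0.020) and Nr4a1 (-0.013, -0.015), with quality weights for Gria2 (-0.0060) and Npas4 (0.046), and with the bulb covariate for Gria2 (-0.020), Mef2a (0.017) and Th (0.072). The cause was not tested. The unknown depth and 4 mice per group limit what could be detected among genes of low level.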

Other observations

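Of the genes tested, 17 differed by more than 2 log2 units, and each was listed at 0 in at least 1 mouse, so none is a fold that can be read. Gm10222, a pseudogene, was at 1553, 0, 540 and 2071 in HT-Veh and was listed at 0 in 3 HT-Flx mice and at 295 in HT-Flx 3. Fam205a2 was at 220 to 266 in 3 HT-Veh mice and listed at 0 in the other one, and in HT-Flx it was at 209 in 1 mouse and listed at 0 in 3. Values of this kind, present or absent in single mice at levels far above the minimum for testing, were not limited to 1 group.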
